A study of Rattus norvegicus with 6 samples.

Results

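Pericytes and vascular smooth muscle cells are the mural cells of blood vessels. Pericytes lie against the endothelium of capillaries, where platelet-derived growth factor made by endothelial cells holds them through the receptor Pdgfrb, and in the spinal cord they support the blood-spinal cord barrier. Smooth muscle cells wrap arteries and arterioles and carry a contractile apparatus of smooth muscle actin, myosin and their partners, whose genes are driven by serum response factor (Srf) and its cofactor Myocd. After cord injury, cells that express Pdgfrb also contribute to the fibrotic scar, and scar myofibroblasts can express Acta2 and Tagln, so these genes mark more than vessels. The genes were taken by gene name from the deposited count table. Of 9 names, 8 matched a row among 33455 genes: the pericyte genes Pdgfrb, Rgs5, Abcc9 and Mcam and the contractile genes Acta2, Tagln, Myh11 and Cnn1. Notch3, the Notch receptor of mural cells, matched no row by name and was not analysed here. All 8 matched genes passed the filter on low counts.

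The tissue was the lesion core of the cord, a piece of about 5 mm3, from wild type rats with a contusion at the T9 segment. Of the 6 libraries, 3 came from rats labelled Gel+US, which had ultrasound and a gel, and 3 from rats labelled Piezo Gel+US, which had ultrasound and a piezoelectric gel, a material that converts strain into charge. Both groups received ultrasound at 100 Hz and 1 W/cm2 for 10 min a day over 4 weeks, and an uninjured or unstimulated group was not analysed here. The labels call the libraries biological replicates and give no age, sex or strain. Library totals ran from 17212653 to 21436820 counts. Levels are given as CPM, counts scaled by the TMM-adjusted library total. In bulk tissue, fewer cells of a type and less RNA per cell cannot be told apart. Myelin and neuron markers were present in every library. Mbp, the myelin basic protein, was at 16724 CPM or more and Snap25, a synaptic protein, at 360.0 CPM or more. The libraries were not alike in their tissue markers. In Piezo Gel+US replicate 2, markers of Schwann cells, the myelin-forming cells of peripheral nerve, summed to 10355 CPM, against 1146 CPM to 3362 CPM in the other 5. Piezo Gel+US replicate 2 was also the lowest library for 7 of 9 oligodendrocyte, 6 of 8 astrocyte and 9 of 12 neuron markers. The same held for 7 of 9 macrophage and microglia markers, and for 28.4% of all genes tested. Gel+US replicate 3 was the lowest library for 26.6% of all genes tested and the highest for 24.4%. It was the highest for 11 of 12 neuron markers, which summed to 16630 CPM there and to 8576 CPM or less elsewhere. Fibroblast markers summed to 7473 CPM in Gel+US replicate 2 and 6687 CPM in Piezo Gel+US replicate 2, and to 1537 CPM or less elsewhere.

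No pericyte or smooth muscle gene passed the test between Piezo Gel+US and Gel+US. Of the 8 genes, 6 had a lower fitted level in Piezo Gel+US (all 4 contractile genes, Rgs5 and Abcc9) and 2 a higher one (Pdgfrb and Mcam). Their median log2 fold change was -0.24, beside -0.021 over the 17066 genes tested, of which 52.9% were lower. By the edgeR quasi-likelihood test 0 of the 8 genes were called at an adjusted p below 0.05, as were 0% of all genes, and every adjusted p was 0.994. At an unadjusted p below 0.05 there was 1 gene of 8, Cnn1, against 2.10% of all genes. DESeq2 called 0 genes and also had only Cnn1 at that level, against 2.81% of all genes. Limma-voom with quality weights called 0 and had Rgs5 and Tagln there but not Cnn1, against 14% of all genes. The edgeR fit with the replicate number as a block called 0 and had 0 of the 8 there, against 5.78% of all genes. Only for Cnn1 did the libraries of the groups not overlap, which happened for 6.81% of all genes in either direction and for 2.73% with Piezo Gel+US the lower group. The median was 0.097 without Gel+US replicate 2, when 5 of the 8 genes were higher, and all 8 were lower without Piezo Gel+US replicate 2.

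**Figure D1:**
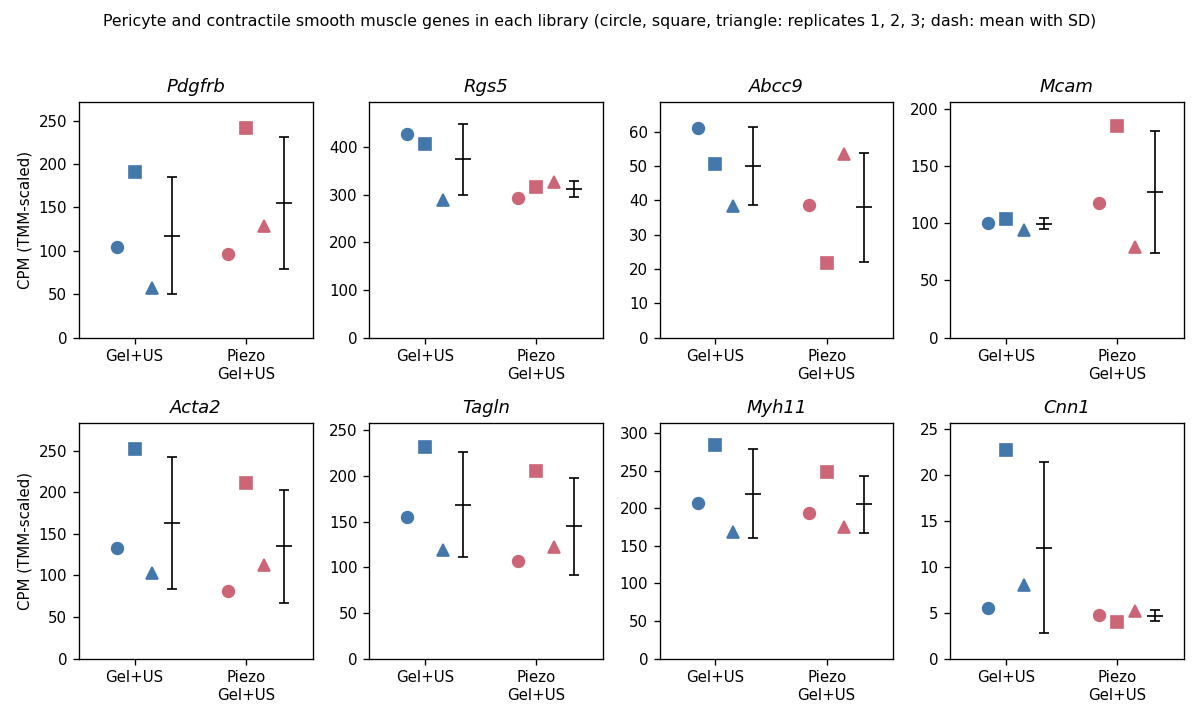
Level of each gene in CPM (vertical axes from 0) in the 3 Gel+US and 3 Piezo Gel+US libraries, with circles, squares and triangles for replicates 1, 2 and 3 and a dash with bars for the mean and SD of 3. The squares, replicate 2, are the 2 highest points for Pdgfrb, Acta2, Tagln and Myh11, and only Cnn1 has no overlap between groups.

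Compared per kilobase of the gene length listed in the table, the early contractile genes were the most abundant. Over all 6 libraries Tagln averaged 140 ± 45.7 CPM per kb (SD, n = 6), Acta2 112 ± 50.7, Rgs5 82.1 ± 14.2, Mcam 47.7 ± 15.6, Myh11 31.2 ± 6.59, Pdgfrb 25.0 ± 12.4, Abcc9 8.78 ± 2.80 and Cnn1 5.78 ± 4.95. Within libraries Tagln exceeded Acta2 in 6 of 6, Mcam exceeded Myh11 in 6 of 6 and Pdgfrb exceeded Abcc9 in 6 of 6. The order of the other neighbours was not the same in every library: Acta2 exceeded Rgs5 in 4 of 6, Rgs5 exceeded Mcam in 5, Myh11 exceeded Pdgfrb in 5 and Abcc9 exceeded Cnn1 in 5.

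Pdgfrb, the receptor that recruits and keeps pericytes, measured 104 CPM, 190 CPM and 57.3 CPM in the Gel+US libraries (replicates 1 to 3) and, for the same replicate numbers of Piezo Gel+US, 96.2 CPM, 241 CPM and 129 CPM. Replicate 2 was the highest library of each group, Gel+US replicate 3 was the lowest of all, and the groups overlapped. The group means were 117 ± 67.4 CPM (Gel+US) and 156 ± 76.1 CPM (Piezo Gel+US, for a log2 fold change of 0.41, 95% interval -0.81 to 1.63). Without Piezo Gel+US replicate 2 the log2 fold change was -0.066, and without Gel+US replicate 2 it was 0.94. The ratio of the highest to the lowest library was 4.21, larger than that of 81.4% of tested genes.

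Rgs5, a regulator of G protein signalling that is among the most used pericyte markers, was the steadiest of the 8 genes. It measured 428 CPM, 406 CPM and 289 CPM in the Gel+US libraries (replicates 1 to 3) and, for the same replicate numbers of Piezo Gel+US, 293 CPM, 316 CPM and 326 CPM. Its 2 highest values were both in Gel+US and its lowest was as well, so the Piezo Gel+US libraries lay inside the Gel+US range. The means were 374 ± 74.7 CPM and 312 ± 16.9 CPM (log2 fold change -0.26, 95% interval -0.78 to 0.25), and the highest library was 1.48 times the lowest, a smaller ratio than that of most tested genes (median 2.05). The replicate 2 libraries, which were highest for Pdgfrb, ranked 2 and 4 of 6 for Rgs5. Rgs4, its near neighbour in the table (a gap of 37977 bases with 0 genes starting between them), had a log2 fold change of -0.27 (95% interval -0.89 to 0.35).

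Abcc9 encodes SUR2, the sulfonylurea receptor that pairs with the pore subunit Kcnj8 (Kir6.1) to form the ATP-sensitive potassium channel of mural cells. Abcc9 measured 61.2 CPM, 50.5 CPM and 38.4 CPM in the Gel+US libraries (replicates 1 to 3) and, for the same replicate numbers of Piezo Gel+US, 38.6 CPM, 21.8 CPM and 53.5 CPM. The lowest value was in Piezo Gel+US replicate 2, the library that was highest for Pdgfrb, and the groups overlapped. The means were 50.03 ± 11.4 CPM and 38.0 ± 15.9 CPM (log2 fold change -0.40, 95% interval -1.23 to 0.44), and the log2 fold change was -0.13 without Piezo Gel+US replicate 2, or -0.73 when replicate 3 of that group was left out.

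The partner Kcnj8 did not follow Abcc9 in every library. It measured 18.2 CPM, 16.4 CPM and 13.3 CPM in the Gel+US libraries (replicates 1 to 3) and, for the same replicate numbers of Piezo Gel+US, 14.1 CPM, 26.9 CPM and 27.4 CPM (log2 fold change 0.52, 95% interval -0.19 to 1.23). In Piezo Gel+US replicate 2, Abcc9 was at its lowest while Kcnj8 was close to its highest. In the coordinates of the table, whose build is not named, Kcnj8 lies at 314859 to 320528 and Abcc9 at 340885 to 455653 on the minus strand of the same sequence, 20356 bases apart with 0 genes starting between them. The log2 ratio of Abcc9 to Kcnj8 within a library was 1.75, 1.63 and 1.53 across Gel+US, and 1.45, -0.30 and 0.96 across Piezo Gel+US. Every Piezo Gel+US library was thus below every Gel+US library in this ratio, which was looked at after the values of both genes were seen and was not tested.

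Mcam (CD146) is a cell adhesion molecule of pericytes, smooth muscle and endothelium and is also made by Schwann cells. It was nearly level in Gel+US, with 100.2 CPM, 104 CPM and 94.4 CPM in replicates 1 to 3, and spread in Piezo Gel+US, with 117 CPM, 185 CPM and 79.6 CPM. Both the highest and the lowest of the 6 libraries were in Piezo Gel+US. The means were 99.4 ± 4.73 CPM and 127 ± 53.3 CPM (log2 fold change 0.36, 95% interval -0.37 to 1.09), and without Piezo Gel+US replicate 2 the log2 fold change was -0.021. Schwann cell markers, of which 9 of 9 were in the table with none at 0 throughout, summed to 10355 CPM in Piezo Gel+US replicate 2, while the sums were 1906 CPM and 3362 CPM in the other Piezo Gel+US libraries and 1146 CPM to 2145 CPM in Gel+US. Piezo Gel+US replicate 2 was the highest library for 8 of the 9 markers, and for 29.2% of all genes tested. Between the groups 9 of 9 had a higher fitted level in Piezo Gel+US (median log2 fold change 1.52), with 0 called by edgeR and 4 at an unadjusted p below 0.05. Their part in the Mcam value was not tested.

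Acta2, smooth muscle alpha actin, forms the thin filaments of contractile mural cells and is also the usual mark of myofibroblasts. It measured 133 CPM, 253 CPM and 102 CPM in the Gel+US libraries (replicates 1 to 3) and, for the same replicate numbers of Piezo Gel+US, 81.4 CPM, 212 CPM and 113 CPM. The replicate 2 library was about as high in one group as in the other, and the remaining 4 libraries overlapped. The means were 163 ± 79.4 CPM and 135 ± 67.9 CPM (log2 fold change -0.27, 95% interval -1.37 to 0.84). The log2 fold change was 0.19 without Gel+US replicate 2 but -0.75 when replicate 2 of Piezo Gel+US was left out.

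The promoter of Acta2 is shown because the contractile genes are textbook targets of Srf, which binds the CArG box: CC, then 6 bases that are A or T, then GG. Promoter windows of 250 bases before and 50 bases after the annotated start, from RefSeq on the GRCr8 build, were found for 4 of the 8 genes (Rgs5, Abcc9, Acta2 and Cnn1). The box reads as the same pattern on both strands. The strict form occurred in 0 of these 4 windows and in 1.64% of 27457 promoters. A relaxed form, in which at most 1 of the 6 inner bases is G or C, occurred in 9.27% of all promoters. It occurred in 1 of 17 windows of other contractile genes, that of Pcp4l1, which matched no row of the count table. The genes with windows are thus not the same set as those found in the count table. Among the 4 windows of the genes studied here, the relaxed form occurred in Acta2 alone, at 2 places. These are CCCTATATGG and CCTTGTTTGG, which begin 134 and 84 bases before the annotated start. They are in capitals in the Acta2 window at chr1:241172454-241172753, minus strand, below which the Cnn1 window at chr8:28908187-28908486, plus strand, is given for comparison because Cnn1 was the contractile gene that varied most.
Acta2: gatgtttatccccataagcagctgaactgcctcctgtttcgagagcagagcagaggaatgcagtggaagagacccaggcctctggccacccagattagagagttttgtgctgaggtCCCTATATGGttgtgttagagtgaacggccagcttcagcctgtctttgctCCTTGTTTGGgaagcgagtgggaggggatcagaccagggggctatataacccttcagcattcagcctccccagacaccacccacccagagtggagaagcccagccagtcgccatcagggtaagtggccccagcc
Cnn1: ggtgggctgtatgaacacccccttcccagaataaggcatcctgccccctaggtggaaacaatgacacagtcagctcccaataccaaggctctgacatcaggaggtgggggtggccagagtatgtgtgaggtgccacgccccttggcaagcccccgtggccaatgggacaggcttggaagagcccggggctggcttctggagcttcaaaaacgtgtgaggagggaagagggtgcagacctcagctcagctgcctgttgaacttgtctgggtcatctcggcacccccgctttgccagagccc
A match in letters is not evidence of binding, and the absence of one in the Cnn1 window concerns these 300 bases only.

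Tagln, transgelin, is an actin-binding protein of smooth muscle that appears early in its differentiation. It measured 154 CPM, 232 CPM and 119 CPM in the Gel+US libraries (replicates 1 to 3) and, for the same replicate numbers of Piezo Gel+US, 107 CPM, 205 CPM and 122 CPM. The 6 libraries stood in the same order for Tagln as for Acta2, with Gel+US replicate 2 at the top and Piezo Gel+US replicate 1 at the bottom. The means were 168 ± 57.5 CPM and 145 ± 52.9 CPM (log2 fold change -0.22, 95% interval -1.04 to 0.61), with 0.072 without Gel+US replicate 2 and -0.56 when replicate 2 of Piezo Gel+US was left out. The centred log2 CPM of Tagln and Acta2 differed by a root mean square of 0.17 over the 6 libraries, the smallest distance between any pair of the 8 genes, and 0.0773% of 12940 genes compared lay nearer to Acta2 than Tagln did.

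Myh11, the smooth muscle myosin heavy chain, is the most specific of the contractile genes for mature smooth muscle. It measured 207 CPM, 284 CPM and 168 CPM in the Gel+US libraries (replicates 1 to 3) and, for the same replicate numbers of Piezo Gel+US, 194 CPM, 248 CPM and 175 CPM. Again replicate 2 held the highest value of each group, but the whole range was narrower, with 1.69 times between the lowest and the highest library. The means were 220 ± 58.8 CPM and 206 ± 37.8 CPM (log2 fold change -0.096, 95% interval -0.70 to 0.51), with 0.12 without Gel+US replicate 2.

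Cnn1, calponin, binds actin and myosin in mature smooth muscle and was the lowest of the 8 genes, with 80 to 409 counts per library. It measured 5.46 CPM, 22.7 CPM and 8.02 CPM in the Gel+US libraries (replicates 1 to 3) and, for the same replicate numbers of Piezo Gel+US, 4.70 CPM, 4.02 CPM and 5.22 CPM. The Piezo Gel+US libraries were close together and below all of Gel+US, although the highest of them nearly touched Gel+US replicate 1. The means were 12.1 ± 9.31 CPM and 4.65 ± 0.602 CPM (log2 fold change -1.37, 95% interval -2.67 to -0.074, unadjusted p = 0.0412, adjusted p = 0.994, edgeR). Without Gel+US replicate 2 the log2 fold change was -0.55 (unadjusted p = 0.144, edgeR). With the replicate number as a block it was -1.10 (95% interval -2.35 to 0.16, unadjusted p = 0.0754, edgeR). Piezo Gel+US replicate 2, second highest of 6 for Acta2, Tagln and Myh11, was the lowest for Cnn1.

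In pairs of equal replicate number, Piezo Gel+US minus Gel+US, the log2 CPM of Cnn1 was lower in 3 of 3 (-0.21, -2.47 and -0.61 for replicates 1 to 3). The other 7 genes each had both signs among the 3 pairs. For Rgs5, Abcc9, Acta2, Tagln and Myh11 the first 2 differences were below 0 and the third above it, with 0.17, 0.48, 0.14, 0.040 and 0.059 in replicate 3. Pdgfrb ran from -0.11 in replicate 1 to 1.17 in replicate 3, and Mcam from -0.24 in replicate 3 to 0.83 in replicate 2. These differences were not tested one by one.

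**Figure D2:**
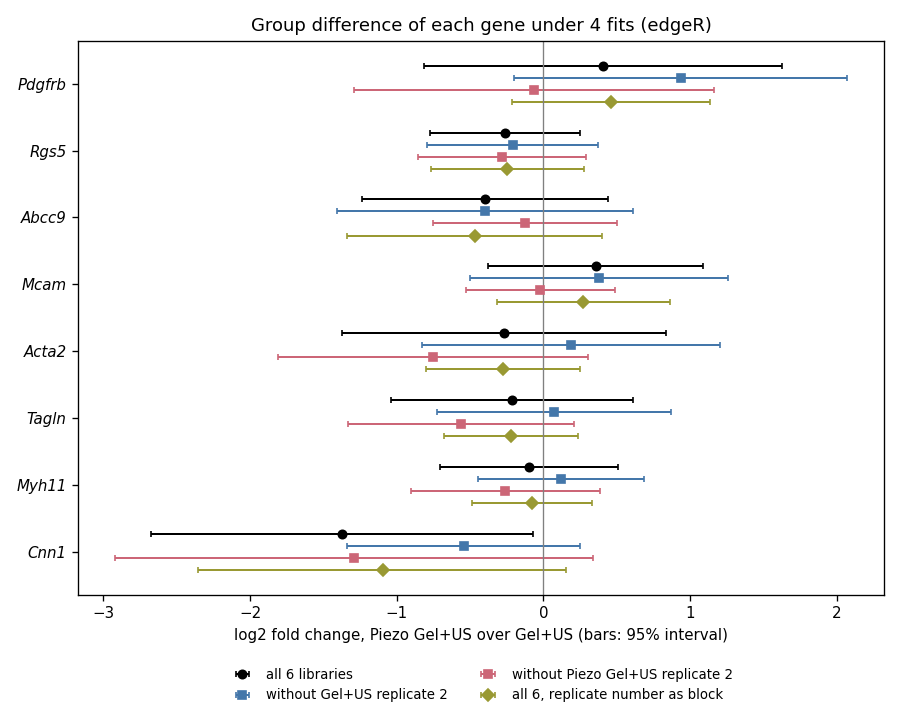
Log2 fold change of each gene, Piezo Gel+US over Gel+US (horizontal axis), with 95% intervals, from all 6 libraries (circles), with replicate 2 of Gel+US or of Piezo Gel+US left out (squares), and with the replicate number as a block (diamonds). All intervals but 1 include 0, and Acta2, Tagln and Myh11 lie on either side of 0 depending on which replicate 2 library is left out.

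Ratios within a library set the genes against each other independently of library scaling. The log2 ratio of Tagln to Myh11 kept to between -0.86 and -0.27 in the 6 libraries and that of Acta2 to Myh11 to between -1.25 and -0.17, with replicate 2 the highest of each group in both. The log2 ratio of Cnn1 to Myh11 ran wider, lowest at -5.95 in Piezo Gel+US replicate 2 and highest at -3.64 in replicate 2 of Gel+US. Within the pericyte genes, the log2 ratio of Rgs5 to Pdgfrb was 2.04, 1.09 and 2.33 in the Gel+US libraries (replicates 1 to 3) and, for the same replicate numbers of Piezo Gel+US, 1.61, 0.39 and 1.34, lowest in replicate 2 of each group. Against Pecam1, an endothelial adhesion molecule, the log2 ratio of Rgs5 averaged 2.95 ± 0.44 across Gel+US, and 2.98 ± 0.75 across Piezo Gel+US, a difference far smaller than the spread between libraries. The log2 ratio of Pdgfrb to Pecam1 averaged 1.13 ± 0.23 and 1.87 ± 1.39, and that of Mcam to Pecam1 1.06 ± 0.63 and 1.603 ± 1.26 (SD, n = 3 each). Both were highest in Piezo Gel+US replicate 2, at 3.42 and 3.04, and both differences were smaller than the spread within Piezo Gel+US.

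**Figure D3:**
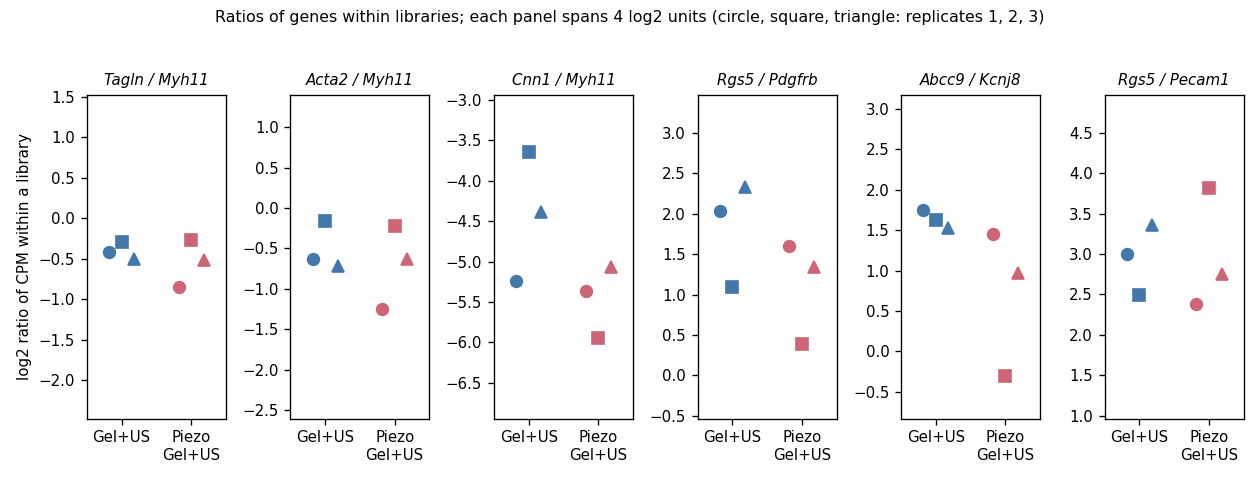
Log2 ratio of CPM for 6 pairs of genes in each library (vertical axes, each spanning 4 log2 units), with circles, squares and triangles for replicates 1, 2 and 3. Tagln to Myh11 has the narrowest range, Cnn1 to Myh11 separates the replicate 2 libraries most, and Abcc9 to Kcnj8 is lower in each Piezo Gel+US library than in any Gel+US library.

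Fibroblast genes were high in the same 2 libraries in which Pdgfrb, Acta2, Tagln and Myh11 were highest. All 14 fibroblast markers were in the table, none was at 0 throughout, and each had its highest level in Gel+US replicate 2 (8 genes) or Piezo Gel+US replicate 2 (6 genes). They summed to 7473 CPM and 6687 CPM in those libraries, while the other sums were 792 CPM and 1018 CPM across Gel+US, and 1271 CPM and 1537 CPM across Piezo Gel+US. Col1a1, the main fibrillar collagen chain, was at 2194 CPM and 1786 CPM there and at 183 CPM to 295 CPM elsewhere, and Col3a1 was at 1848 CPM and 1364 CPM there and at 110 CPM to 265 CPM elsewhere. Their part in the levels of Pdgfrb and the contractile genes was not tested. With replicate 2 of both groups left out, a choice made after seeing the data, 0 of the 8 genes were called and the log2 fold changes were 0.48 for Pdgfrb, -0.28 for Acta2, -0.25 for Tagln, -0.025 for Myh11 and -0.45 for Cnn1.

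Endothelial markers differed less between libraries than fibroblast markers. Of 21 markers 19 were in the table, 10 higher and 9 lower in Piezo Gel+US (median log2 fold change 0.019), with 0 called by edgeR and 1, Kdr, at an unadjusted p below 0.05. Their sums were 959 CPM to 1538 CPM across Gel+US, and 1086 CPM to 1662 CPM across Piezo Gel+US. Gel+US replicate 3 was the lowest library for 11 of the 19, and for 26.6% of all genes tested. That library was also the lowest for Pdgfrb, Rgs5 and Myh11. Vwf, the von Willebrand factor, measured 174 CPM to 381 CPM over the 6 libraries and Cldn5, the main claudin of barrier endothelium, 164 CPM to 438 CPM.

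Skeletal muscle, which flanks the spine, has its own actin and myosin genes, and some of its markers were high in 1 library. Acta1, skeletal alpha actin, measured 72.1 CPM in Piezo Gel+US replicate 2 and 1.11 CPM to 3.00 CPM in the other 5. Atp2a1, the calcium pump of fast muscle, measured 13.5 CPM there and at most 1.44 CPM elsewhere, and Ckm, muscle creatine kinase, 10.01 CPM and at most 0.333 CPM. Myh1, a skeletal myosin heavy chain, measured 6.14 CPM there and at most 1.39 CPM elsewhere, and Tnni2, a troponin I, 5.18 CPM and at most 0.301 CPM. These were chosen after their values were seen. Of 19 skeletal muscle markers 15 were in the table and 11 were tested. Piezo Gel+US replicate 2 was the highest library for 4 of the 11 and the lowest for 3. Over all genes tested it was the highest for 29.2% and the lowest for 28.4%. Ckm, Tnni2 and Myoz1, which did not pass the filter on low counts, were also highest in that library. Tnnt3, fast troponin T, peaked in Gel+US replicate 2 instead, at 17.8 CPM. The sums of the 15 were 29.5 CPM to 46.1 CPM across Gel+US, and 30.9 CPM to 134 CPM across Piezo Gel+US. Mb, myoglobin, was at 0 in all libraries but Gel+US replicate 1, and Tnnc2, fast troponin C, was lowest in Piezo Gel+US replicate 2 (4.78 CPM, against 8.11 CPM to 12.9 CPM). The part of skeletal muscle in the Acta2 level of that library, where near-identical actin genes may share reads, was not tested.

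**Figure D4:**
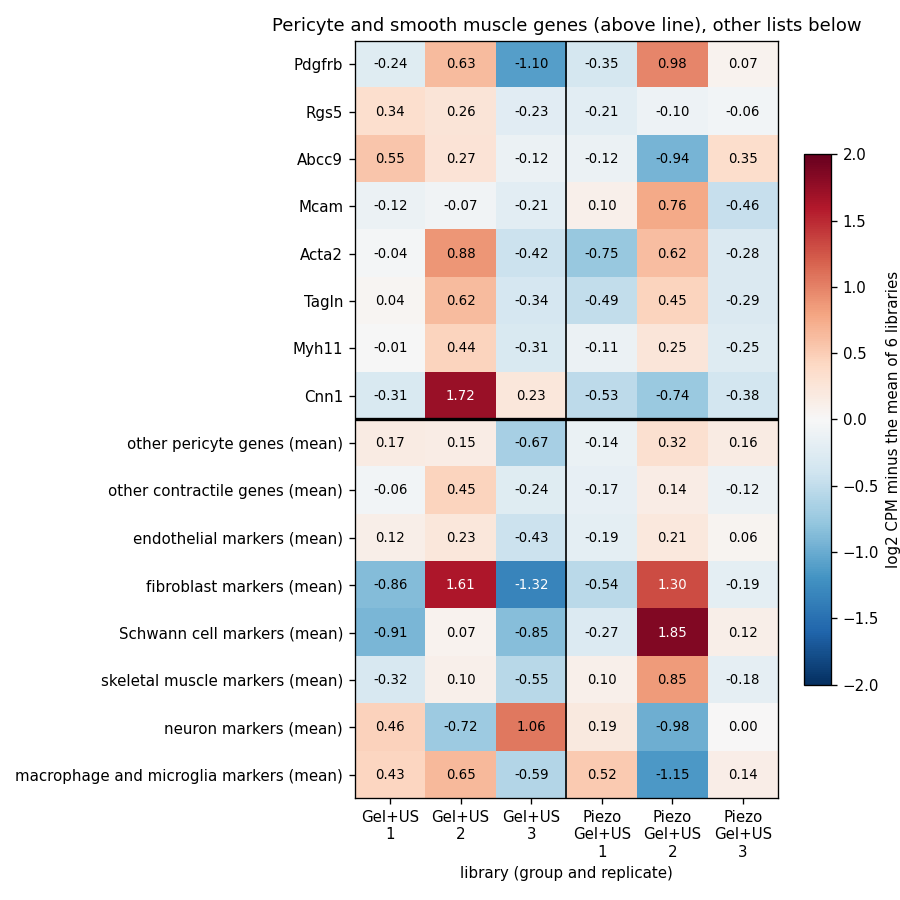
Log2 CPM minus the mean of the 6 libraries (colour and printed value) for the 8 genes above the line and, below it, the mean over each of 8 other gene lists; columns are the libraries. Pdgfrb, Acta2, Tagln and Myh11 are highest in the replicate 2 libraries, where fibroblast markers reach 1.61 and 1.30, while Abcc9 and Cnn1 are lowest in Piezo Gel+US replicate 2.

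Other pericyte genes were split between directions. Of 20 names 16 were in the table and tested, 9 higher and 7 lower with a median log2 fold change of 0.18, and 0 were called by edgeR (2 at an unadjusted p below 0.05). Those were Cspg4, the NG2 proteoglycan of pericytes and oligodendrocyte precursors, and Art3, an ADP-ribosyltransferase family member. Cspg4 measured 81.9 CPM, 87.2 CPM and 61.5 CPM across Gel+US, and 92.3 CPM, 130 CPM and 106 CPM across Piezo Gel+US, with no overlap (log2 fold change 0.51, 95% interval 0.0060 to 1.01). Art3 had a log2 fold change of 1.41 and its highest level, 220 CPM, in Piezo Gel+US replicate 2, against 32.5 CPM to 61.1 CPM in the other 5. For 11 of the 16 genes the lowest library was Gel+US replicate 3, which was the lowest for 26.6% of all genes tested. Without that library 7 of the 16 were higher and 9 lower (median -0.053).

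Among other contractile genes more had a lower than a higher fitted level in Piezo Gel+US, and none was called. Of 20 names 17 were in the table, 6 higher and 11 lower (median log2 fold change -0.16; 0 called and 0 at an unadjusted p below 0.05, edgeR). Actg2, the enteric smooth muscle actin, resembled Cnn1, with 3.61 CPM, 15.6 CPM and 4.91 CPM in the Gel+US libraries (replicates 1 to 3) and, for the same replicate numbers of Piezo Gel+US, 1.65 CPM, 3.97 CPM and 3.47 CPM (log2 fold change -1.40, 95% interval -2.93 to 0.14). Smtn, smoothelin, went the other way, with 46.8 CPM to 85.9 CPM across Gel+US, and 62.9 CPM, 236 CPM and 97.3 CPM across Piezo Gel+US replicates 1 to 3 (log2 fold change 1.13, 95% interval -0.11 to 2.37). Hspb6, a small heat shock protein of smooth muscle, was almost flat, with all libraries between 29.3 CPM and 31.4 CPM. Without Gel+US replicate 2 the list had 11 higher and 6 lower (median 0.010).

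Genes that regulate smooth muscle contraction and transcription were mostly lower, again with none called. Of 18 names 17 were in the table, 3 higher and 14 lower (median log2 fold change -0.31, beside -0.021 over all genes; 0 called and 0 at an unadjusted p below 0.05, edgeR). Without Gel+US replicate 2 the count was 6 higher and 11 lower (median -0.13), and with replicate 2 of both groups left out the median was -0.060. Myocd, the smooth muscle cofactor of Srf, was the one of lowest p, at low levels of 1.15 CPM, 1.17 CPM and 1.10 CPM across Gel+US, and 0.534 CPM, 0.402 CPM and 0.776 CPM across Piezo Gel+US, with no overlap (log2 fold change -0.99, 95% interval -2.03 to 0.050, unadjusted p = 0.0591, edgeR). Srf itself had a log2 fold change of 0.28 (95% interval -0.34 to 0.90). Kcnma1, the large-conductance potassium channel that relaxes smooth muscle and is also neuronal, had a log2 fold change of -0.82 (95% interval -1.91 to 0.27). Neuron markers, 12 of 12 lower, were not tested for a part in that value; their sums were 2925 CPM to 16630 CPM across Gel+US, and 2234 CPM to 8576 CPM across Piezo Gel+US.

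The ligands and receptors around Pdgfrb and the Notch pathway showed no called difference. Of 5 PDGF names 4 were in the table, 3 higher and 1 lower (median log2 fold change 0.20; 0 called by edgeR and 0 at an unadjusted p below 0.05). Without Piezo Gel+US replicate 2 the count was 1 higher and 3 lower (median -0.055). Pdgfb, the main ligand of Pdgfrb, matched no row and was not analysed here. Pdgfa, a ligand of Pdgfra, had a log2 fold change of 0.36 (95% interval -0.12 to 0.84), and Pdgfra, the receptor of fibroblasts and oligodendrocyte precursors, 0.21 (95% interval -0.48 to 0.91). Of 15 Notch names 14 were in the table, 7 higher and 7 lower (median 0.041, or -0.12 without Gel+US replicate 3; 0 called by edgeR and 0 at an unadjusted p below 0.05). Jag1, a ligand of mural Notch receptors, had a log2 fold change of -0.25 (95% interval -1.19 to 0.68) and was highest in Gel+US replicate 2 (57.5 CPM, against 20.2 CPM to 34.3 CPM). Nrarp, a feedback target of Notch, measured 13.9 CPM, 18.05 CPM and 11.6 CPM across Gel+US, and 18.1 CPM, 23.4 CPM and 22.1 CPM across the Piezo Gel+US libraries (log2 fold change 0.55, 95% interval -0.0016 to 1.10), a separation that rested on a gap of less than 1 CPM. The endothelial ligand Dll4 had a log2 fold change of 0.63 (95% interval -0.42 to 1.68), and Heyl, a Notch target of mural cells, measured 22.4 CPM to 26.1 CPM in all 6 libraries (log2 fold change -0.012).

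The genes whose profile over the 6 libraries lay nearest to the mean profile of each set were found among 12940 other genes by the root mean square difference of centred log2 CPM. For the 4 pericyte genes, whose mean profile was rather flat (-0.41 to 0.27), these were Ubp1 (0.057), Gtpbp2 (0.058), Sra1 (0.059) and Ddx39b (0.064), while the median gene lay at 0.38. That mean was over unlike members: in Piezo Gel+US replicate 2 Pdgfrb was at 0.98 and Mcam at 0.76, but Abcc9 at -0.94. A gene near the mean profile need not be near any single pericyte gene. The mean profile of the 4 contractile genes peaked at 0.92 in Gel+US replicate 2. Nearest to it were Steap3 (0.080), Sertad4 (0.10), Hfe (0.11) and Gucy1a1 (0.13), with the median gene at 0.54. This mean, too, was over unlike members. In Gel+US replicate 2 Cnn1 was at 1.72, while Acta2, Tagln and Myh11 were at 0.44 to 0.88. In Piezo Gel+US replicate 2 Cnn1 was at -0.74, while Acta2, Tagln and Myh11 were at 0.25 to 0.62. A gene near this mean need not be near any single contractile gene. Gucy1a1, a subunit of the nitric oxide receptor guanylate cyclase, measured 19.3 CPM, 40.8 CPM and 16.8 CPM across Gel+US, and 15.4 CPM, 19.7 CPM and 19.2 CPM across Piezo Gel+US replicates 1 to 3. As with Cnn1, the high level in Gel+US replicate 2 had no counterpart in Piezo Gel+US replicate 2.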

How the data were processed

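Polyadenylated RNA of 6 lesion core libraries was sequenced with strand kept by dUTP, per the labels' protocols. The deposited table holds unnormalised counts, made by the authors, with 1 column per library and the name, position and length of each gene. The tools in the submitters' processing notes are DESeq2 1.20.0, featureCounts 1.5.0-p3, fastp 0.19.7 and HISAT2 2.0.5; their settings, genome build and use of strand are not given in the sources used here. Of the table's gene identifiers 0 occur in the RefSeq table of GRCr8 and 15093 of its gene names do, so positions are printed as the deposited table gives them, and genes with near-identical copies (actins) are uncertain.

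All genes were fitted with edgeR 4.0.16 in R 4.3.3 (TMM, filterByExpr with minimum count 10 and total 15, robust quasi-likelihood F test, group only), adjusted by Benjamini-Hochberg over 17066 genes, threshold 0.05. Centred log2 CPM uses a prior count of 2. Alternatives were DESeq2 1.42.0, its size factors in edgeR, no filter, limma-voom 3.58.1 with quality weights, the replicate number as a block, and leaving out libraries. The fit was tested on simulated counts with a common dispersion for all genes and without pairs or differences in tissue content. That test therefore cannot show how the fit behaves on libraries like these. P-values measure only the spread between these libraries.

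The 9 genes and the other lists were chosen with earlier results of these data known. Genes named beyond them were Kcnj8, Pdgfb, Jag1, Srf and Myocd, and the 2 of lowest p in each of 5 companion lists. To these were added the 2 most abundant endothelial, fibroblast and skeletal muscle markers, and the 4 nearest profiles per set. Kdr, Rgs4, Hspb6, Heyl, Mb, Atp2a1, Ckm, Tnnt3, Myh1, Tnni2, Myoz1, Pecam1, Mbp and Snap25 were named after their values were seen. Pcp4l1 was named after its promoter match was seen. Astrocyte, oligodendrocyte and macrophage marker lists had 7 of 8, 5 of 9 and 9 of 9 genes lower. One gene of the Schwann cell marker list is not reported here and was left out of its sums.

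Deviations from group means correlated between same-numbered libraries at 0.253, 0.296 and 0.251 for replicates 1 to 3 over 17066 genes. Between libraries of unequal number the values ran from -0.342 to 0.198. The highest of these, for replicate 1 of Gel+US and replicate 3 of Piezo Gel+US, was not far below the same-numbered values. The correlations alone do not establish that the numbers pair the samples, and the labels do not say what a number marks. The replicate number was used as a block in an alternative fit, while the main fit was group only.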

Additional observations from a re-analysis of the deposited data

How the results depend on the processing

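The count of genes called was 0 of the 8 and 0 of all genes under each of the 12 alternatives (edgeR, DESeq2 or limma-voom), with 141 to 2390 genes at an unadjusted p below 0.05. The fit with a replicate block called 0 genes, and of its 986 genes at that level 0 were among the 8 (Cnn1 -1.10, unadjusted p = 0.0754, edgeR); the block changed no call and no direction of the 8 genes. DESeq2 size factors, no filter and DESeq2 changed no direction of the 8 genes; limma-voom with quality weights, which weighted Gel+US replicate 1 at 7.74 and no other library above 2.41, gave Mcam -0.072 and Cnn1 -0.26. Leaving out 1 library moved the median log2 fold change of the 8 genes between -0.43 and 0.097. It moved Pdgfrb between -0.066 and 0.94, Mcam between -0.021 and 0.60, Acta2 between -0.75 and 0.19, Tagln between -0.56 and 0.072 and Myh11 between -0.27 and 0.12, so each of these 5 changed sign; Myh11 was 0.0070 without Piezo Gel+US replicate 3. Rgs5 (-0.43 to -0.16), Abcc9 (-0.73 to -0.13) and Cnn1 (-1.72 to -0.55) stayed below 0. Of the 8 genes, Cnn1 had the fewest counts, at 80 to 409 per library. The higher and lower counts of the other gene lists under these alternatives were added after seeing the data; the 16 other pericyte genes had 6 higher and 10 lower under limma-voom (median -0.038).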
